A study of Mus musculus with 6 samples.

Results

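The nuclei described here were chosen by their own counts from 6 single-nucleus RNA libraries of mouse cortical lesions. A nucleus was a member if it held at least 800 unique molecular identifiers (UMIs, each a counted RNA molecule) with under 5% of them mitochondrial, at least 1 UMI of 3 or more of the 6 genes Ccr7, Il12b, Cacnb3, Slco5a1, Apol7c and Tmem150c, and no UMI of Cd3e, Pax5 or Col1a2. Of 61973 nuclei past the depth and mitochondrial limits, 184 were members. Lesions were made in the cortex by photothrombosis (PT), in which light and a dye close cortical vessels, and nuclei were sorted on DAPI after perfusion. Ctrl mice were wild-type and given no treatment by the labels, ADWA11 mice were wild-type and given an antibody that blocks integrin αvβ8 from the day of injury, and Tgfbr2-cKO mice carried Col1a2(creER) and Tgfbr2(flox) and received tamoxifen, so that the type II TGFβ receptor was removed from cells with Col1a2-driven Cre, which are fibroblasts. Each group was sampled at 7 and at 21 days post injury (dpi) as 1 library that pooled the tissue of 1 male and 1 female mouse. The general age range of the mice was 7 to 21 weeks, and no age was given for these libraries in particular. With 1 library per group there was no replicate of a condition, so differences between libraries are given as values with no test. All intervals are exact 95% intervals that cover counting error only.

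Dendritic cells take up antigen in tissue, and on maturation they raise MHC and co-stimulatory molecules, lower their uptake receptors and switch on Ccr7, the receptor for the chemokines Ccl19 and Ccl21 that guide them into lymphatic vessels and lymph nodes. This programme runs through NF-κB factors, above all the Relb and Nfkb2 arm, and includes the actin-bundling protein Fscn1, the chemokines Ccl22 and Ccl5, and checkpoint ligands such as Cd274. In the brain such cells are known mostly from the meninges, the choroid plexus and sites of injury, and they are rare.

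The label of mature migratory dendritic cells held for some members and not for most. Of the 184, 135 also carried at least 3 of 7 neuron markers (Rbfox3, Snap25, Slc17a7, Gad1, Gad2, Grin2b and Syt1), a threshold called the neuron gate below, and 49 did not. The split by the neuron gate was made after the values had been seen. The members at 7 dpi numbered 5 in Ctrl, 10 in ADWA11 and 123 in Tgfbr2-cKO, and those at 21 dpi 5, 18 and 23. Of these, 120 of the Tgfbr2-cKO members at 7 dpi, 13 of those at 21 dpi and 2 of the Ctrl members at 21 dpi lay in the neuron gate. The same Tgfbr2-cKO library at 7 dpi held 60.8% of its nuclei in the neuron gate, Tgfbr2-cKO at 21 dpi 16.8%, and the other 4 libraries from 0.499% to 1.83%.

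**Figure D1:**
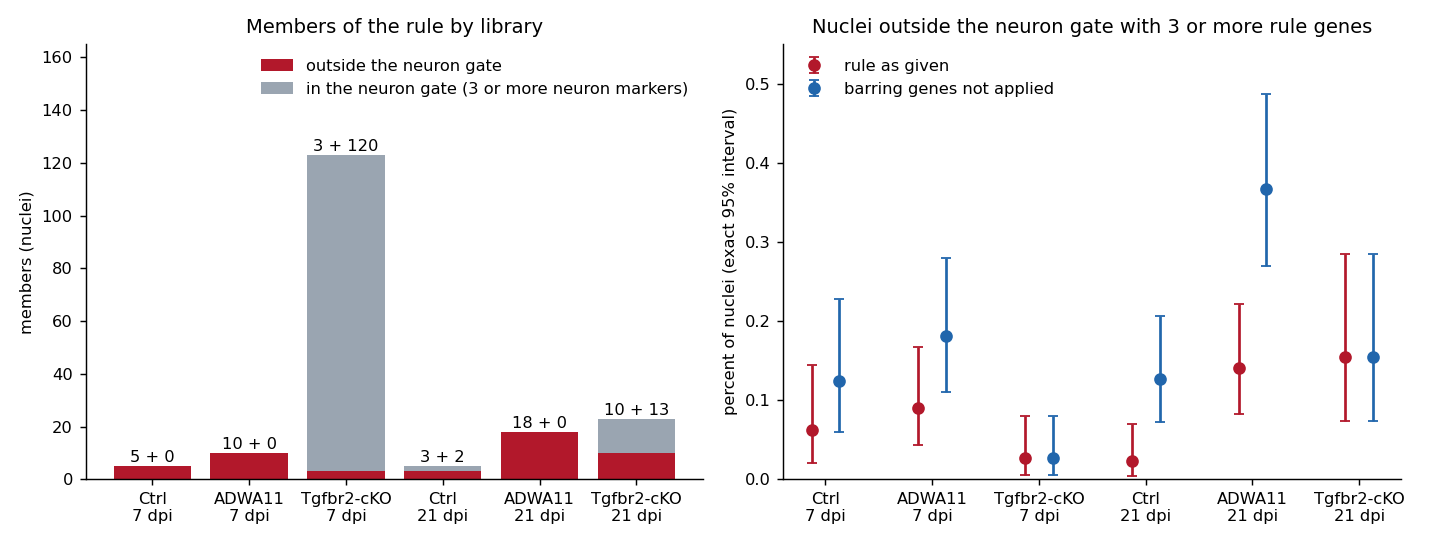
Left, members of the rule in each of the 6 libraries as stacked counts of nuclei, outside (red) and in (grey) the neuron gate, with both counts written above each bar. Right, nuclei outside the neuron gate with 3 or more rule genes as a percent of all nuclei of the library, with the rule as given (red) and with the barring genes not applied (blue), where points are values and bars exact 95% intervals for counting error. The grey counts lie almost wholly in Tgfbr2-cKO, and the blue values are above the red ones in the Ctrl and ADWA11 libraries only.

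The 135 members in the neuron gate were deep nuclei with few genes of dendritic cell maturation. Their median was 29459 UMIs and 5616 genes per nucleus, against 3897 UMIs (1787 to 19715) and 1939 genes in the 49 others. In 128 of the 135 the rule was met by exactly Cacnb3, Slco5a1 and Tmem150c, Ccr7 was detected in 7, and Il12b and Apol7c in none, which allows shares of up to 2.70%. Cacnb3 encodes a β subunit of voltage-gated calcium channels, Slco5a1 an organic anion transporter of the solute carrier family and Tmem150c a membrane protein linked to mechanically gated currents. Of 8125 other nuclei in the neuron gate, with a median of 15923 UMIs, 23.8% had a UMI of Cacnb3, 28.8% of Tmem150c and 14.3% of Slco5a1, but only 0.123% of Ccr7, 0.0123% of Il12b and 0.0246% of Apol7c. In oligodendrocyte-gate nuclei (at least 3 of 5 myelin markers, n = 2356, median 5510.5 UMIs) the shares were 3.57% for Cacnb3, 5.05% for Tmem150c, 1.19% for Slco5a1 and 0.0849% for Ccr7. So 3 of the 6 rule genes were detected widely in deep neuronal nuclei, and the other 3 were at background there.

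Over all 184 members, the genes with the highest ratios to the dendritic comparison nuclei described below were Nrg1, Etl4, Osbpl6, Erc2 and Dpp10, followed by Camk2a, Cacnb4 and Grik1. Nrg1 is the growth factor neuregulin 1, Erc2 a protein of the presynaptic active zone and Camk2a a kinase of excitatory synapses. Nrg1 stood at 4032 CPM (UMIs scaled to the same total of non-mitochondrial UMIs in every set) in all members and at 10.6 CPM in the comparison nuclei, a log2 ratio of 8.58. In the whole comparison 24.1% of 12548 genes were at least 2-fold higher in the members and 33.6% at least 2-fold lower, and all 7 neuron markers were among the higher ones. The comparison nuclei left out those in the neuron gate, so the direction of the 7 markers was largely set by the gates. Against the Cd209a gate alone the shares were 19.8% and 37.1%. These leading genes went against the label, so the members in the neuron gate are given by their counts only from here on, and the values below are those of the 49 non-neuronal members unless all members are named. Thinned to 2000 UMIs per nucleus, which left out 6130 shallower nuclei, the rule found 55 nuclei, of which 0 had 3 neuron markers.

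The 49 non-neuronal members carried the leukocyte gene Ptprc in 45 nuclei and no UMI of any of the 7 neuron markers in 44. Of the 26 genes of a maturation list that the rule did not use, the median member held 14 (range 7 to 21), against 4 (0 to 15) in the members of the neuron gate. At 2000 UMIs per nucleus the medians were 10.5 genes (5 to 17, 46 nuclei deep enough) and 0 genes (0 to 4, 135 nuclei). The lowest member outside the gate at equal depth thus held more of the list than the highest one in it. The list was chosen with earlier results of these data known and the split was made after seeing the values. This separation is therefore a description and not independent evidence. A doublet score called 3 of the 49 and 39 of the 135, and 5835 of all 61973 nuclei past the limits. Barcodes that occurred in more than 1 library numbered 553, and 4 members but none of the 49 had such a barcode.

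The rule genes differed in how often they were found in the 49. Cacnb3 was detected in 47, Slco5a1 in 42, Tmem150c in 39 and Ccr7 in 38, whereas Apol7c, an apolipoprotein L family gene, was found in 14 and Il12b, the shared subunit of interleukins 12 and 23, in 8. The most frequent combination was Ccr7, Cacnb3, Slco5a1 and Tmem150c, in 11 nuclei, followed by the same genes without Ccr7 in 9. In the mm10 assembly with GENCODE M21 genes, Ccr7 lies on the minus strand at chr11:99144196-99155077, Il12b on the plus strand at chr11:44400063-44414033, Cacnb3 at chr15:98630840-98644529 on the plus strand, Apol7c at chr15:77524852-77533316 on the minus strand, Slco5a1 at chr1:12866549-12992650 on the minus strand and Tmem150c at chr5:100077872-100159808 on the minus strand. Macrophage-gate nuclei (at least 3 of 8 macrophage and microglia markers, n = 11297) had a UMI of Ccr7 in 0.115% and of Cacnb3 in 0.593% at a median of 5177 UMIs. This gate left out nuclei with 3 or more rule genes or a barring gene, those in the neuron gate and those in a dendritic gate described below. Its low shares of rule genes are thus partly set by definition.

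Il12b and Apol7c were spread unevenly over the libraries. Il12b was found in 0 of 5 (Ctrl), 0 of 10 (ADWA11) and 0 of 3 (Tgfbr2-cKO) members at 7 dpi and in 2 of 3, 1 of 18 and 5 of 10 at 21 dpi. Among the barred nuclei at 7 dpi, Il12b was found in 3 of 10 of ADWA11 (61 UMIs) and 0 of 5 of Ctrl. Its absence at 7 dpi thus held for the members and the barred Ctrl nuclei but not for the barred ADWA11 nuclei. Apol7c was found in 1 of 5, 2 of 10 and 0 of 3 at 7 dpi and in 1 of 3, 10 of 18 and 0 of 10 at 21 dpi. Ccr7 was found in at least 2 members of every library, in 4 of 5, 7 of 10 and 2 of 3 at 7 dpi and in 3 of 3, 14 of 18 and 8 of 10 at 21 dpi. With so few nuclei a count of 0 of 10 still allows a share of up to 30.8%, and 42% of all Il12b UMIs of the members came from 1 nucleus.

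**Figure D2:**
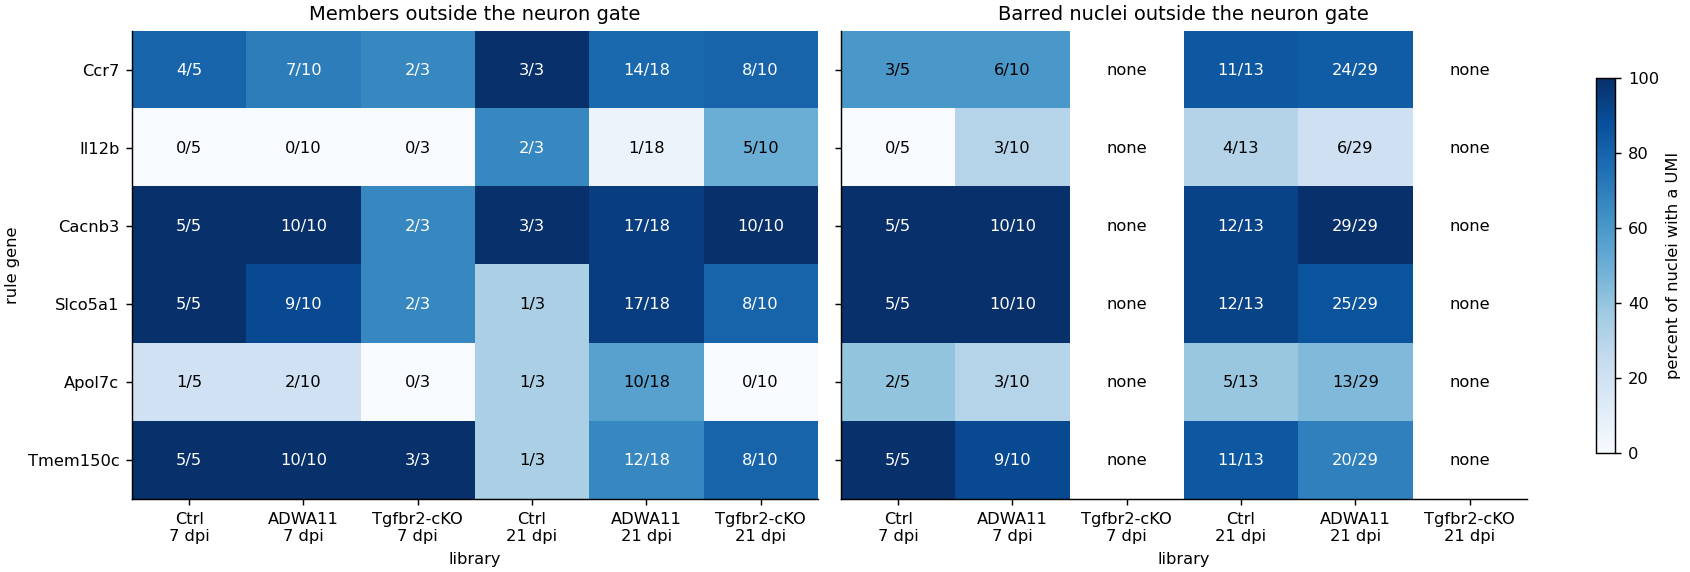
Nuclei with at least 1 UMI of each rule gene (rows) in each library (columns), as counts written in the cells and as percent by colour, for members outside the neuron gate (left) and for nuclei outside the gate that had 3 or more rule genes but also a barring gene (right). Cacnb3 and Ccr7 were found in most nuclei of every library, and Apol7c was most frequent in ADWA11 at 21 dpi. At 7 dpi Il12b was at 0 in the members and the barred Ctrl nuclei but not in the barred ADWA11 nuclei.

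Nuclei just inside and just outside the threshold differed in the maturation list, which is a description since the threshold chose them. Among nuclei outside the neuron gate with no barring gene, those with 1 rule gene (n = 739) and with 2 (n = 33) held medians of 2 and 3 maturation genes, and those with 3 (n = 19), 4 (n = 19) and 5 (n = 11) held 13, 15 and 15. Of the 33 nuclei with 2 rule genes, 11 held 7 or more maturation genes, the lowest value in any of the 49 members. In the neuron gate the medians were 3 with 1 rule gene, 3 with 2 and 4 with 3.

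**Figure D3:**
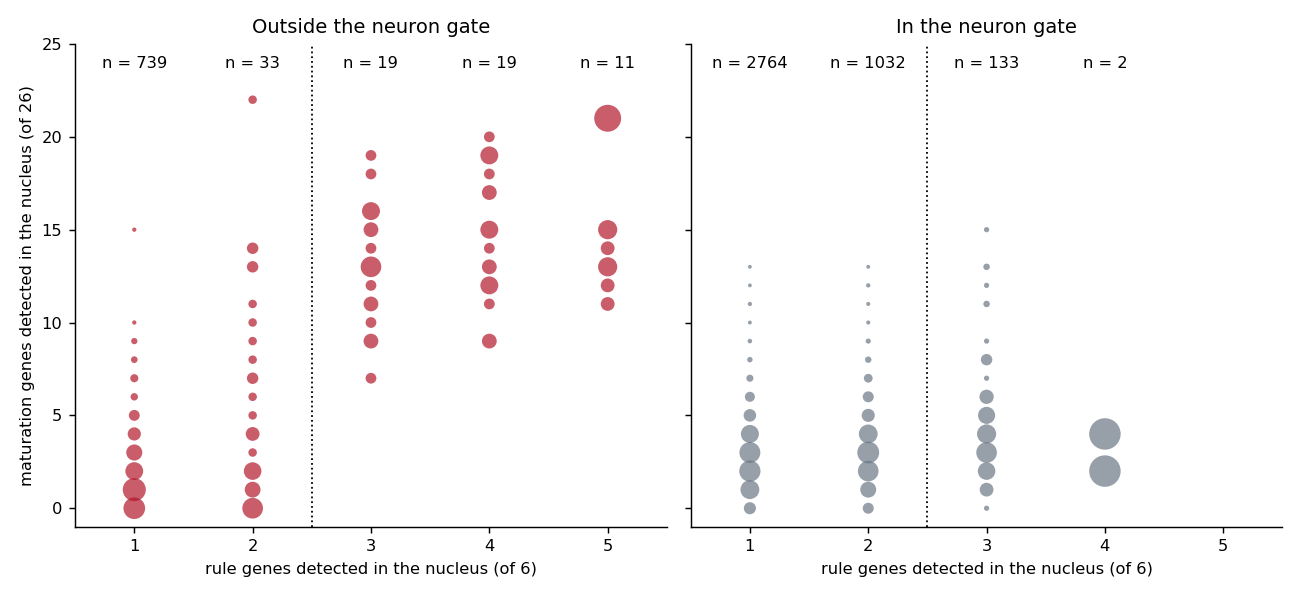
Genes of the 26-gene maturation list detected per nucleus (vertical axis) against rule genes detected (horizontal axis), for nuclei without a barring gene, outside (left) and in (right) the neuron gate. Dot area is the share of the nuclei at that number of rule genes, and the dotted line is the threshold of the rule. Outside the gate every nucleus right of the line held 7 or more maturation genes, and in the gate most held 5 or fewer.

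The barring gene Col1a2, a collagen chain of fibroblasts, was detected in most nuclei of some libraries and in few of others. At 7 dpi its share was 71.1% in Ctrl, 63.7% in ADWA11 and 7.66% in Tgfbr2-cKO, and at 21 dpi 87.2%, 72.7% and 19.1%. In neuron-gate nuclei, which should lack it, the shares in the same order were 68.9%, 63.6% and 5.26%, then 76.5%, 52.0% and 10.5%, at median depths of 8317 to 22920 UMIs. The rule therefore left only 28.5%, 35.8% and 91.8% of nuclei eligible at 7 dpi and 12.4%, 25.3% and 77.9% at 21 dpi, and its member counts in Ctrl and ADWA11 cannot be read without this.

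A further 57 nuclei outside the neuron gate had 3 or more rule genes and were barred, all but 1 of them by Col1a2. At 7 dpi they numbered 5 in Ctrl, 10 in ADWA11 and 0 in Tgfbr2-cKO, and at 21 dpi 13, 29 and 0. In 25 of the 57 the bar rested on 1 UMI of Col1a2, in 13 on 2 UMIs and in 18 on 3 or more. Their maturation genes ran from 6 to 22 with a median of 15, next to 14 in the members, and 16 of them held 3 or more fibroblast markers besides. Ccr7 was found in 44 of the 57, Cacnb3 in 56, Apol7c in 23 and Il12b in 13. Because they are not members, their values are set beside those of the 49 and never added to them without saying so.

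The share of nuclei that were non-neuronal members lay between 0.0238% and 0.155% in the 6 libraries. At 7 dpi it was 0.0620% in Ctrl (5 nuclei, 0.0201% to 0.145%), 0.0907% in ADWA11 (10 nuclei, 0.0435% to 0.167%) and 0.0274% in Tgfbr2-cKO (3 nuclei, 0.00564% to 0.0799%). At 21 dpi it was 0.0238% in Ctrl (3 nuclei, 0.00490% to 0.0695%), 0.140% in ADWA11 (18 nuclei, 0.0832% to 0.222%) and 0.155% in Tgfbr2-cKO (10 nuclei, 0.0742% to 0.284%). The intervals of the 3 libraries at 7 dpi overlapped, and at 21 dpi those of ADWA11 and Tgfbr2-cKO lay above that of Ctrl.

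For ADWA11 against Ctrl at 21 dpi the log2 ratio of shares was 2.56 (0.78 to 4.97). It was 1.53 (0.69 to 2.45) with no nucleus barred, from 47 nuclei in ADWA11 (0.366%) and 16 in Ctrl (0.127%), and 1.87 (0.73 to 3.19) when nuclei were also thinned to 2000 UMIs, from 33 and 8 nuclei. Over unbarred nuclei alone it was 1.53 (-0.25 to 3.93) and among nuclei with Ptprc, counting the 15 and 3 members that had it, 1.53 (-0.29 to 3.96), intervals that hold 0. Each library's 2 mice were separated by sex-linked UMIs. With no bar, 10 of 3493 female (0.286%, 0.137% to 0.526%) and 24 of 7096 male nuclei (0.338%, 0.217% to 0.503%) of ADWA11 had 3 rule genes outside the gate. In Ctrl these were 7 of 6568 female (0.107%, 0.0429% to 0.219%) and 5 of 3314 male nuclei (0.151%, 0.0490% to 0.352%). Both ADWA11 values lay above both Ctrl values, but each ADWA11 interval overlapped both Ctrl intervals, and this is 2 mice in each group and no test. At 7 dpi the same ratio was 0.55 (-1.13 to 2.45), and 0.55 (-0.61 to 1.81) with no bar, intervals that hold 0.

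For Tgfbr2-cKO the size of the ratio at 21 dpi, and whether its interval held 0, rested on the bar. Against Ctrl the log2 ratio was 2.70 (0.75 to 5.2) by the rule, 0.29 (-1.01 to 1.52) with no nucleus barred (10 against 16 nuclei), 0.046 (-1.91 to 2.55) when shares were taken of unbarred nuclei alone and 1.13 (-0.36 to 2.68) when thinned with no bar. At 7 dpi it was -1.18 (-3.87 to 1.18) by the rule, -2.18 (-4.68 to -0.22) with no bar, from 3 and 10 nuclei, and -2.87 (-5.56 to -0.51) over unbarred nuclei. The 60.8% of that library's nuclei in the neuron gate enter the denominator, and among nuclei with no 3 markers of neurons, oligodendrocytes, their precursors or astrocytes the log2 ratio was 0.58 (-2.11 to 2.94). All 3 nuclei of Tgfbr2-cKO at 7 dpi were among its 2384 male nuclei (0.126%), and 0 of its 6457 female nuclei were members outside the gate, which allows a share of up to 0.0571%. As a share of nuclei with Ptprc, whether or not each member had it, non-neuronal members of Tgfbr2-cKO stood at 0.111% at 7 dpi. Ctrl stood at 0.106% then. At 21 dpi the shares were 0.357% (0.172% to 0.656%) in Tgfbr2-cKO and 0.0595% (0.0123% to 0.174%) in Ctrl. Counted over all 184 members, the log2 ratio at 7 dpi was 4.18, with 120 of the 123 Tgfbr2-cKO members in the neuron gate.

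Between 7 and 21 dpi the log2 ratio of shares was -1.38 in Ctrl (-4.07 to 0.98), 0.63 in ADWA11 (-0.56 to 1.91) and 2.5 in Tgfbr2-cKO (0.54 to 5.0). With no bar these were 0.03, 1.01 (0.23 to 1.85) and 2.5. The Tgfbr2-cKO value was 0.37 (-2.20 to 3.14) in male nuclei alone and 1.26 (-0.74 to 3.79) over nuclei with no 3 markers of neurons or glia, intervals that hold 0. In female nuclei alone, with 0 of 6457 at 7 dpi and 4 of 2743 at 21 dpi, it was 1.65 or more at a floor of 3 nuclei. The Ctrl value thus moved from below 0 to near 0, and the ADWA11 interval left 0 out without the bar. The ratios share libraries with each other and are not independent.

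The maturation programme was compared with 3 other sets of nuclei, pooled over the libraries and without barred nuclei. These sets also left out nuclei with 3 or more rule genes, nuclei in the neuron gate and nuclei that met more than 1 of the 3 gates. Low levels of rule genes and neuron markers in them are therefore partly set by definition. The cDC1 gate held 66 nuclei with at least 3 of Xcr1, Clec9a, Wdfy4, Itgae, Tlr3 and Snx22, which mark conventional type 1 dendritic cells. The Cd209a gate held 47 nuclei with Cd209a and at least 1 of Mgl2, Clec10a, Cd209d, Kmo and Tnip3, and the macrophage gate the 11297 nuclei given above. A gene is called higher or lower here where its pooled CPM differed at least 2-fold, over genes with at least 20 UMIs in the sets compared, with no test since the rule chose the members by expression.

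Genes of the maturation list were higher in the non-neuronal members, with 1 exception against macrophages. Against the cDC1 and Cd209a gates together this was 24 of 24 genes with a median log2 ratio of 4.04, where 13.2% of all 6516 genes compared were higher and 22% were lower and the median of all genes was -0.19. Against the macrophage gate it was 25 of 26 genes with a median of 4.22, where 19.6% of 12827 genes were higher and 21.6% lower. Marcksl1 and Nudt17 had too few UMIs for the first comparison, and Gyg, glycogenin, at 0.76 was the gene under 2-fold in the second. The list was chosen with earlier results of these data known, so its direction is a description and not independent evidence.

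Samsn1, an adaptor of lymphocyte signalling, was the most abundant gene of the list, with 635 UMIs in 48 of the 49 nuclei. In the order Ctrl, ADWA11, Tgfbr2-cKO, used for all values by library from here on, it stood at 2704, 1709 and 3601 CPM at 7 dpi and at 3258, 2318 and 2402 CPM at 21 dpi, and at 46.5 CPM in the cDC1 gate, 153 in the Cd209a gate and 80.4 in the macrophage gate. All libraries thus lay more than 10-fold above each comparison gate. Fscn1, the actin bundler of mature dendritic cells, was found in 36 nuclei at 383 CPM, against 0 CPM in the cDC1 gate, 4.94 in the Cd209a gate and 5.44 in the macrophage gate. By library Fscn1 was at 127, 386 and 617 CPM at 7 dpi and at 740, 438 and 365 CPM at 21 dpi, from 4 to 35 UMIs each. Its log2 ratio to the dendritic gates was 7.76, and the other list genes over 5 were Ankrd33b (7.37), Anxa3, an annexin (6.42), Socs2, an inhibitor of cytokine receptor signalling (6.23), Ccl22 (6.05) and Il4i1, an amino acid oxidase (5.90). Anxa3 was also found at 336 CPM in the macrophage gate, a log2 ratio of 1.44, so it set the members apart from other dendritic nuclei more than from macrophages. With each library left out in turn, all 24 genes were higher, with list medians of 3.74 to 4.02. Without Ctrl at 7 dpi Fscn1, then at 0 UMIs in the dendritic gates, stood at 6.08 or more at a floor of 3 UMIs and Il4i1 at 7.23, without ADWA11 at 7 dpi Ankrd33b at 8.15 and Anxa3 at 7.06, and without ADWA11 at 21 dpi Fscn1 at 6.98, Ccl22 at 3.83 or more, Il4i1 at 4.89 and Socs2 at 7.33.

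The summed maturation list took 14313, 8161 and 15125 CPM in the members at 7 dpi and 17770, 13240 and 11826 CPM at 21 dpi. The median member held 13 to 15 of the 26 genes in every library. ADWA11 at 7 dpi had the lowest summed level (7583 to 8770 CPM) and the highest median depth of the 6, 8139 UMIs per member, and the part of depth in this level was not tested. In the barred nuclei the sums were 7533 and 5221 CPM at 7 dpi and 8062 and 11625 CPM at 21 dpi for Ctrl and ADWA11, and 25 of 25 list genes were higher than in the dendritic gates with a median of 3.69 (background 17.9% of 7594 genes higher, 17.8% lower).

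**Figure D4:**
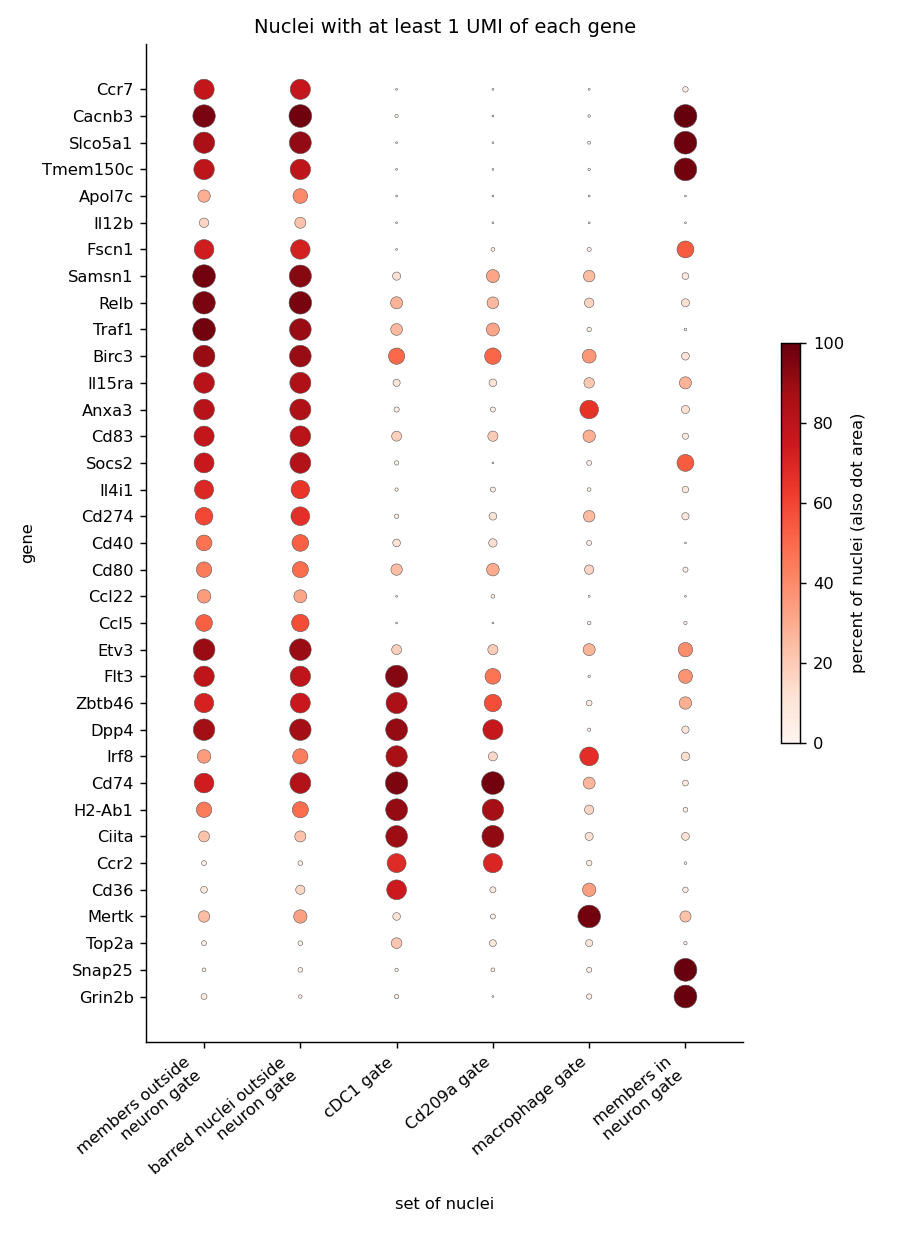
Percent of nuclei with at least 1 UMI of each gene (rows) in 6 sets of nuclei (columns), shown by both dot area and colour. The members outside the neuron gate and the barred nuclei share the maturation and lineage genes, the cDC1 and Cd209a gates carry Cd74, H2-Ab1, Ciita and Ccr2, and the members in the neuron gate carry Cacnb3, Slco5a1, Tmem150c, Snap25 and Grin2b.

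Most NF-κB genes compared were higher. Of 15 factors, adaptors and feedback genes, 11 were higher than in the dendritic gates and 0 lower, with a median log2 ratio of 2.05. Of all genes, 13.2% were higher and 22% lower there. Against the macrophage gate 11 were higher and 1 lower (median 2.96), where 19.6% of all genes were higher and 21.6% lower. Relb, Nfkb2, Traf1 and Birc3 are also on the maturation list, so the 2 lists are not separate. Relb, the partner of Nfkb2 in the non-canonical arm, was found in 47 of 49 nuclei at 1394 CPM, against 84.9 CPM in the cDC1 gate and 93.8 in the Cd209a gate. By library Relb was at 1940, 926 and 1646 CPM at 7 dpi and at 1777, 1932 and 1064 CPM at 21 dpi, with ADWA11 at 7 dpi and Tgfbr2-cKO at 21 dpi the lowest. Traf1, an adaptor of TNF receptors that is also on the maturation list, was found in 48 nuclei at 759 CPM with a log2 ratio of 3.05, and Birc2, a ubiquitin ligase of the same receptors, at 727 CPM with 3.78. Map3k14, the kinase that drives the non-canonical arm, had 1.89, and Nfkbia and Tnfaip3, which restrain NF-κB, had 2.30 and 2.59. The canonical subunits Nfkb1 (0.01) and Rela (0.46) were within 2-fold of the dendritic gates, whereas Rel stood at 2.25. The lower gene against macrophages was Bcl2l1, an inhibitor of apoptosis (-2.41). With each library left out, 10 to 12 of the 15 were higher and 0 lower than in the dendritic gates, and without ADWA11 at 21 dpi Tnfaip3 stood at 3.89.

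The promoters of 4 of these genes are shown with the NF-κB motif, because most genes of this list were higher. RefSeq promoter windows on GRCm38.p6, the 250 bases before an annotated start, of which a gene can have several, were found for 12 of the 15 NF-κB genes, 19 of the 26 maturation genes and 4 of the 6 rule genes. The motif searched was GGG, any 2 bases and then TTTCC, on either strand, and 447 of 27025 genes (1.65%) had it in such a window. It was found for 6 NF-κB genes (Nfkb2, Rel, Nfkbia, Tnfaip3, Traf3 and Bcl2l1), of which the first 4 had log2 ratios of 2.25 to 2.59, Traf3 1.13 (0.98 without Tgfbr2-cKO at 7 dpi) and Bcl2l1 0.69 (1.49 without Tgfbr2-cKO at 21 dpi). Of the maturation genes Nfkb2 alone had a match, and of the rule genes none, which says only that these letters are absent from these windows. The windows of 4 genes are printed in the direction of the gene, with the match in capitals, at chr19:46305680-46305929 on the plus strand for Nfkb2, and on the minus strand at chr11:23770970-23771219 for Rel, chr12:55492648-55492897 for Nfkbia and chr10:19015411-19015660 for Tnfaip3. By the GENCODE M21 genes, the Nfkb2 window lies inside Nfkb2 (chr19:46304320-46312385), the Tnfaip3 window inside Tnfaip3 (chr10:19000910-19015657) but for its first bases, and the Bcl2l1 window, not printed, inside Bcl2l1. A second Nfkb2 window, chr19:46304487-46304736, also had a match and is not printed.
Nfkb2: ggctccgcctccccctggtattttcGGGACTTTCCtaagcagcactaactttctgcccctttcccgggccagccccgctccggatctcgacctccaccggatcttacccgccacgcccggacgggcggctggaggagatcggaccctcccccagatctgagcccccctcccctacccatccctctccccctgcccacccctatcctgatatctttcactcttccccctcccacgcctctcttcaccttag
Rel: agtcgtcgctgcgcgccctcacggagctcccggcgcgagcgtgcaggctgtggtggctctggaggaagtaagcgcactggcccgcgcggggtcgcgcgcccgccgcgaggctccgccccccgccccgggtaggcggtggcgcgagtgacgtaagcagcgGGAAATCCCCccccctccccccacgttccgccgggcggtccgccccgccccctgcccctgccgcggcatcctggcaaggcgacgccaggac
Nfkbia: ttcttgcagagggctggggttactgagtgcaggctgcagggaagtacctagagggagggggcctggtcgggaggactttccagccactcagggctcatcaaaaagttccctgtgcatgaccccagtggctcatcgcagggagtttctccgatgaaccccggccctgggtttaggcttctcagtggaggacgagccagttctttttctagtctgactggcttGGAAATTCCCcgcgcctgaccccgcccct
Tnfaip3: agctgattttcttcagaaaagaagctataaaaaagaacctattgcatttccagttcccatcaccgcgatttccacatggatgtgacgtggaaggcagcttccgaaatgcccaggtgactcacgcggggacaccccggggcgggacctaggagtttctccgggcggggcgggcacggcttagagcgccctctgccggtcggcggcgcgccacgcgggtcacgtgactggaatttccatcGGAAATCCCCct

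Of 13 dendritic cell lineage genes 2 were higher and 5 lower than in the dendritic gates (median -0.32), where 13.2% of all genes were higher and 22% lower, and 9 were higher and 0 lower than in the macrophage gate (median 2.43). The dendritic gates differed here too, with 2 of 12 genes higher and 4 lower against the cDC1 gate alone (median -0.59) and 3 of 12 higher and 2 lower against the Cd209a gate alone (median 0.48). With each library left out, 1 (without Ctrl at either time) to 3 of the 13 were higher and 4 to 5 lower than in both gates pooled. Flt3, the receptor for the growth factor of the lineage, was found in 39 of 49 nuclei at 539 CPM (log2 ratio -0.20 against the dendritic gates and 8.89 against macrophages). By library Flt3 was at 573, 353 and 823 CPM at 7 dpi and at 1481, 695 and 456 CPM at 21 dpi. Zbtb46, a transcription factor of the lineage (-0.32), and Dpp4, a surface peptidase (-0.02), were also within 2-fold of the dendritic gates and stood at 5.05 and 7.77 against macrophages. Etv3, an ETS-family repressor, was higher than in both sets (3.05, or 3.94 without ADWA11 at 21 dpi, and 3.13). Irf8, needed for type 1 dendritic cells, was at 142 CPM against 1202 CPM in the cDC1 gate and 88.9 CPM in the Cd209a gate. Xcr1, Itgae, Snx22, Cd209a, Mgl2, Cd209d and Kmo were at 0 UMIs in the 49, no member met either dendritic gate, 23 had a UMI of a gene of the cDC1 gate (Wdfy4 in all 23), 12 had one of the Cd209a gate and 21 of neither.

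Most MHC class II genes compared were lower than in the other dendritic nuclei and higher than in macrophages. Of 11 genes compared, 9 were lower and 0 higher than in the dendritic gates (median -2.53), where 22% of all genes were lower and 13.2% higher. Of 12 compared with the macrophage gate 8 were higher and 1 lower (median 1.96), where 19.6% of all genes were higher and 21.6% lower. Cd74, the invariant chain, stood at 1622, 375 and 2675 CPM at 7 dpi and at 1333, 1159 and 897 CPM at 21 dpi, against 1549 CPM in the cDC1 gate, 7918 in the Cd209a gate and 162 in the macrophage gate. H2-Ab1 had a log2 ratio of -2.70 and Ciita, the master activator of these genes, of -3.22, while Ctss, the protease that trims the invariant chain, stood at 0.50. March1, which ubiquitinates class II, was the lower gene against macrophages (-1.82) and drew 75% of its 36 UMIs from 1 nucleus, and without ADWA11 at 7 dpi its ratio to the dendritic gates went from -3.20 to -6.31. MHC class I genes were closer to the dendritic gates, with 3 of 11 higher and 0 lower (median 0.60), B2m, Nlrc5 and H2-K1 at 1.41, 1.36 and 1.20. B2m was at 0.85 without Tgfbr2-cKO at 21 dpi and H2-K1 at 0.95 without ADWA11 at 21 dpi, so neither was 2-fold higher in every such set. In the barred nuclei 0 of 11 class I genes were higher than in the dendritic gates and 1 lower (median 0.32). Of all genes, 17.9% were higher and 17.8% lower in that comparison.

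Most co-stimulatory and regulatory genes compared were higher than in the dendritic gates, where 13.2% of all genes were higher and 22% lower. Of 6 co-stimulatory genes compared with the dendritic gates 4 were higher and 0 lower, Cd40 (2.78), Pvr (2.19), Cd80 (1.85) and Icosl (1.5), and Cd86 (-0.57) and Cd48 (-0.98, or -1.07 without Ctrl at 21 dpi) were within 2-fold. Of 9 regulatory genes 7 were higher and 2 lower. The higher ones included Fas, a death receptor (4.82), Cd274, the ligand PD-L1 (4.09), and Pdcd1lg2, the ligand PD-L2 (2.53). The lower ones were Havcr2, the receptor TIM-3 (-4.07), and Entpd1, an ATP-degrading enzyme (-1.76). Cd274, Pdcd1lg2, Cd200, Socs2 and Il4i1 among the 7, and Cd40 above, are also on the maturation list. These counts therefore repeat part of that list and are a description. Aldh1a2, also among the 7, stood at 0.77 without ADWA11 at 21 dpi. Cd274 stood at 191, 243 and 103 CPM at 7 dpi and at 740, 464 and 91.2 CPM at 21 dpi, from 1 to 36 UMIs a library. Tgfbr2-cKO members thus had the lowest level at both times, from 1 and 6 UMIs. Cd80 was no longer 2-fold higher without Tgfbr2-cKO at 21 dpi (0.97). Without ADWA11 at 21 dpi Cd40 stood at 3.44 and Pdcd1lg2 at 3.47, and without ADWA11 at 7 dpi Havcr2 at -5.45. The summed co-stimulatory list of the members lay below the dendritic gates in ADWA11 at 7 dpi (629 against 715 CPM) and above them in the other libraries. In the barred nuclei 3 of 6 co-stimulatory genes were higher and 1 lower than in the dendritic gates. Their sums lay below those gates in Ctrl and above them in ADWA11, at both times.

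Chemokines and cytokines differed gene by gene. Ccl22 and Ccl5 were found in 17 and 26 of 49 nuclei, at 117 and 415 CPM, and Ccl5 had 0 UMIs in both dendritic gates, so that its log2 ratio was at least 6.30 at a floor of 3 UMIs over both gates, with 32% of its UMIs from 1 nucleus. Cxcl16, the ligand of Cxcr6, and Il15, with its presenting receptor Il15ra (571 CPM, 4.53), stood at 2.03 and 2.12. Tgfb1 was lower (-1.44). Il1b was lower too (-1.35), but stood at 0.037 without ADWA11 at 21 dpi and at -2.54 without Tgfbr2-cKO at 7 dpi. Without ADWA11 at 21 dpi both had 0 UMIs in the dendritic gates, and Ccl22 was at 3.83 or more and Ccl5 at 5.68 or more. Il10, Il12a, Il23a and Cxcl9 were at 0 UMIs in the 49, and Il6, Tnf and Cxcl10 at 4, 1 and 2 UMIs.

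Genes of immature phagocytes were lower than in macrophages, and most of those of the cell cycle lower than in macrophages and the dendritic gates. Of all genes, 13.2% were higher and 22% lower against the pooled dendritic gates, and 19.6% higher and 21.6% lower against macrophages. Of 8 uptake and sensing genes compared with the dendritic gates 5 were lower and 0 higher (median -1.48), with Cd36, a scavenger receptor, at -4.21, and all 13 compared with macrophages were lower. The dendritic gates differed here, with 2 of 5 genes higher and 1 lower against the cDC1 gate alone (median 0.49, background 17.7% higher and 20.6% lower) and 0 of 4 higher and 2 lower against the Cd209a gate alone (median -1.38, background 16.1% and 18.6%). Of 5 chemokine and lipid receptors 2 were higher and 3 lower (median -2.51). Ccr2, which draws monocytes and their progeny into tissue, was at 7.09 CPM against 459.8 and 676 CPM in the dendritic gates (-6.24, or -4.93 or lower without ADWA11 at 21 dpi, where it had 0 UMIs), and Cx3cr1 was lower too (-2.51), from -3.31 without ADWA11 at 21 dpi to -1.52 without ADWA11 at 7 dpi. The higher ones were Ccr6 (1.87, or 2.81 without Ctrl at 7 dpi) and the oxysterol receptor Gpr183 (1.40), of whose 63 UMIs 45 came from ADWA11 at 21 dpi and which stood at 0.24 without that library. In the barred nuclei 0 of 5 such receptors were higher than in the dendritic gates and 2 lower, the highest at 0.74 (all genes 17.9% higher and 17.8% lower). In the members 6 of 11 cytoskeletal and migration genes were higher, among them Swap70 (2.65), Myo1g (1.71) and Marcks (1.60), and Tiam1 (-2.27, or -2.98 without ADWA11 at 7 dpi) and Elmo1 (-1.91) were lower. Fscn1 of this list is also on the maturation list. The summed migration list lay below the dendritic gates in ADWA11 at 7 dpi (4058 against 4454 CPM) and Tgfbr2-cKO at 21 dpi (3831 against 4917 CPM). In the other libraries it lay above them. All 7 cell cycle genes compared with the dendritic gates were lower (median -4.16), as were 6 of 9 compared with macrophages (median -2.65), with Mki67 at 1 UMI and Top2a at 2 UMIs in the 49 nuclei. Cell cycle genes summed to 6 UMIs in ADWA11 at 7 dpi, 1 in ADWA11 at 21 dpi and 0 in the other libraries. In the dendritic gates the median nucleus held 0 cell cycle genes and a few nuclei up to 9, and their sums were 1276, 1719 and 1564 CPM at 7 dpi and 0, 211 and 375 CPM at 21 dpi. In Ctrl at 21 dpi both sets were thus at 0, and without ADWA11 at 7 dpi 5 of the 7 genes were lower (median -1.93), with Mki67 and Top2a, then at 0 UMIs in the members, at the floor values of -2.59 and -3.20. Of 7 interferon-stimulated genes compared with the dendritic gates 3 were higher (Gbp2, Irf1 and Usp18) and 1 lower (Stat2, -1.81), with each library left out as well. Without ADWA11 at 21 dpi Gbp2 went from 2.16 to 2.86 and Usp18 from 1.69 to 3.36. Against macrophages 3 of 12 interferon-stimulated genes were higher and 2 lower (median -0.007).

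**Figure D5:**
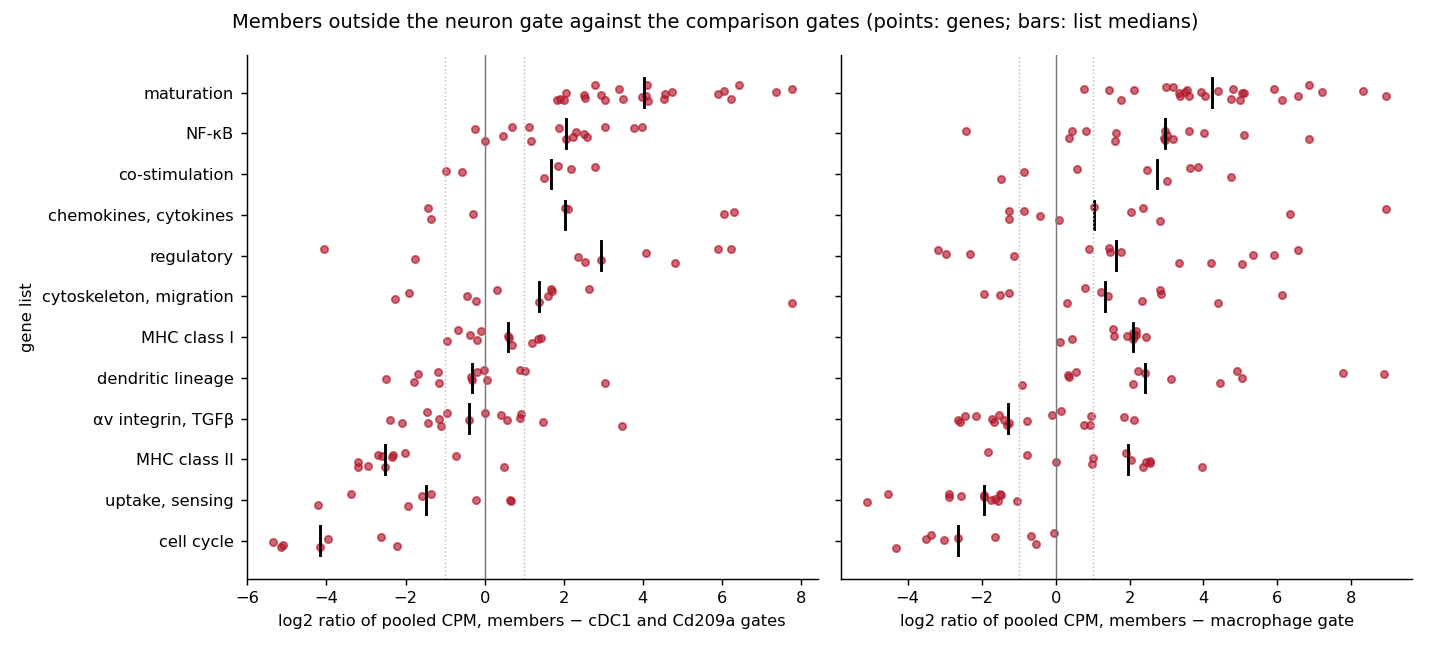
Log2 ratio of pooled CPM in the members outside the neuron gate to the cDC1 and Cd209a gates (left) and to the macrophage gate (right), for genes of 12 lists with at least 20 UMIs in the sets compared. Points are genes, black bars the median of each list, the solid line equality and the dotted lines a 2-fold difference. The maturation list lies to the right in both panels, MHC class II to the left against dendritic nuclei and to the right against macrophages, and cell cycle genes to the left in both.

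The genes of αv integrins and TGFβ signalling, the pathway that the 2 interventions act on, differed gene by gene. Of 15 compared with the dendritic gates 2 were higher and 6 lower (median -0.39), and of 18 compared with macrophages 2 were higher and 10 lower (median -1.29). The shares of all genes were 13.2% higher and 22% lower in the first comparison and 19.6% and 21.6% in the second, so the share of the list that was higher lay near or under that of all genes and the share that was lower above it, which was not tested. In the barred nuclei 5 of 18 were higher and 2 lower than in the dendritic gates (median 0.20, all genes 17.9% and 17.8%). Against macrophages 6 of 21 were higher and 6 lower there (all genes 22.5% and 16.1%). With each library left out, 2 or 3 of the 15 genes in the members were higher and 4 to 7 lower than in the dendritic gates. Itgb8, the β8 chain that ADWA11 blocks with its αv partner, was found in 7 of the 49 nuclei with 22 UMIs (78.0 CPM, log2 ratio 3.47, or 2.68 without Tgfbr2-cKO and 4.41 without Ctrl at 21 dpi), and 45% of them came from 1 nucleus. Its UMIs numbered 0, 4 and 0 in the libraries of 7 dpi and 0, 4 and 14 in those of 21 dpi. Itgb1, a β chain shared by many integrins, was found in 47 nuclei at 876 CPM (0.91). Itgav, the αv chain (-1.47), and Nrros, which holds latent TGFβ on myeloid cells (-2.08), were lower than in the dendritic gates. Tgfbr2 (-1.14, 9 nuclei) ran from -2.59 without ADWA11 at 21 dpi to -0.79 without Tgfbr2-cKO at 21 dpi, and was within 2-fold without either of Ctrl and ADWA11 at 7 dpi as well (-0.92 and -0.81). Itgb8 and Tgfbr2 were at 0 UMIs in the 5 and 3 members of Ctrl and the 3 of Tgfbr2-cKO at 7 dpi, too few nuclei at this depth to show a difference.

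Outside the lists, the genes with the highest ratios to the dendritic gates were Gm16685 (986 CPM in 75.5% of members, at least 7.54 on the log2 scale with 0 UMIs in the gates), Syn3 (7.47), Mmp25, a membrane-bound metalloproteinase (7.24), Slc4a8, a bicarbonate transporter (6.41), Dscaml1 (6.38), Pakap (6.30), Mreg, melanoregulin (6.06), the long non-coding RNA Gm26535 (5.84), Adcy6, an adenylyl cyclase (5.80) and Papss2, an enzyme of sulfate activation (5.62). Gm16685 is annotated as an antisense RNA, and UMIs of it and of a partner on the other strand can be told apart only as far as the counting used strand. Next came Arhgap28 (5.46), Il2ra, the α chain of the interleukin 2 receptor (at least 5.31), Slc7a11, a cystine transporter (5.10), Adora2a, an adenosine receptor (5.04) and Synpo2 (5.01). The lowest were Cysltr1, a leukotriene receptor (-6.39), Naaa (720 CPM in the gates and 0 UMIs in the members, -6.08 or lower), Sirpb1a (-5.63), Gpr141 (-5.61), Rnd3 (-5.51), Kif15 (-5.42), Gm43914 (-5.40), Ifi205 (-5.38) and Atp8b4, a phospholipid flippase (-5.33). In the barred nuclei Gm16685 stood at 670 CPM, Mreg at 1073 CPM and Mmp25 at 119 CPM.

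Markers of other cell types were detected in the 49 to different extents, and their part in the values above was not tested. The 7 neuron markers summed to 24.8 CPM, with Rbfox3 and Gad2 at 0 UMIs, against 6879 CPM in the members of the neuron gate. The 8 macrophage markers summed to 798 CPM (0 to 1224 over the libraries) against 4564 CPM in the macrophage gate, with Cd163 at 0 UMIs, and 7 members held 3 or more of them and 20 none. T and NK cell markers summed to 49.6 CPM with Cd3d at 0, B and plasma cell markers to 21.3 CPM, and fibroblast markers to 202 CPM (0 to 888) with Lum at 0. Leaving macrophages aside, 4 of the 49 held 3 or more markers of another class, and without these 4 the median of the maturation list was 4.14 against the dendritic gates. The median without the 7 members with macrophage markers was not computed. Oligodendrocyte precursor markers summed to 876 CPM (0 to 2691), nearly all of it Vcan and Lhfpl3 UMIs from 1 nucleus each. Oligodendrocyte markers summed to 372 CPM, astrocyte markers to 42.5, neutrophil markers to 31.9 and endothelial markers to 10.6 (Cldn5, Ptprb and Cdh5 at 0). Plasmacytoid dendritic cell markers summed to 1479 CPM, between the 709 CPM of the cDC1 gate and the 2488 CPM of the Cd209a gate.

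Of the pairs of libraries set against each other, that of Tgfbr2-cKO at 21 dpi (23 members) and at 7 dpi (123 members) alone had 15 or more members on both sides, and it was compared gene by gene. Of 11684 genes, 8.08% were at least 2-fold higher at 21 dpi and 9.83% lower. Of 17 maturation genes 15 were higher and 0 lower (median log2 ratio 2.68, all genes -0.04), as were 9 of 14 NF-κB genes and 6 of 8 MHC class II genes, and 0 of 7 neuron markers differed 2-fold. The leading genes were Stx11, a syntaxin of cytotoxic and myeloid cells (6.54), H2-Q6 (5.44), Gpr132 (4.68), Traf1 (4.64) and Apobec3 (4.31) at 21 dpi, and Ebf1, with 0 UMIs in the later members (-4.06 or lower), Egfr (-4.40), Rmst (-4.28), Smoc2 (-4.26) and Zfp831 (-4.18) at 7 dpi. Beside this, 10 of the 23 later members and 3 of the 123 earlier ones lay outside the neuron gate, so the comparison sets a mixture against nearly pure neuron-gate nuclei.

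The ligands of Ccr7 were measured in all nuclei other than the members and the barred nuclei. Ccl19 stood at 0.700, 0.501 and 0.222 CPM at 7 dpi and at 2.39, 3.02 and 1.06 CPM at 21 dpi, from 30 to 246 UMIs a library. Ccl21 genes summed to 0 to 13 UMIs a library, the most in ADWA11 at 21 dpi. Nuclei with Cd3e, of the T cell receptor complex, made up 1.17%, 0.990% and 0.332% of these at 7 dpi and 2.17%, 5.71% and 2.80% at 21 dpi, and ADWA11 at 21 dpi had the highest value of Ccl19 and of Cd3e. These are 1 value a library and no relation between them was tested.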

How the data were processed

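Single-nucleus RNA was measured with 10x Chromium 3' v3.1 chemistry in 6 libraries, 1 per group. The deposited counts are UMIs per gene and barcode that the authors made with Cell Ranger, version 7.2.0 per the file headers (the submitters' processing notes list 7.1.0), on mm10, not normalised. The 6 libraries held 7205 to 14246 barcodes and 64798965 to 140310354 UMIs, 67360 barcodes in all, and medians of 4999 to 8954 UMIs per nucleus past the limits. The members, the gene lists and the comparison gates were chosen with earlier results of these data known, and the neuron gate split and the count of barred nuclei were added after seeing the data.

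UMIs were summed over the nuclei of a set and given as CPM of non-mitochondrial UMIs, with exact Poisson intervals. Shares carry Clopper-Pearson 95% intervals, and ratios of shares exact conditional binomial intervals. These cover counting error only. A set with 0 counts was given a floor of 3. Genes needed 20 UMIs over the sets compared, and "higher" or "lower" means at least 2-fold. Named were the rule genes, list genes with 20 UMIs, and of other genes the 15 highest and 10 lowest ratios to the dendritic gates with at least 50 UMIs, detection in at least 5% of nuclei, the same direction in every library with 10 nuclei of both sets and at most 20% of UMIs from 1 nucleus, and between libraries the 5 highest and 5 lowest with at least 30 UMIs, an interval without 0 and at most 30% of UMIs from 1 nucleus. Some genes that this rule names are not reported here. Doublet scores came from a Scrublet-type simulation (2 simulated doublets per nucleus, 2000 variable genes, 30 components, the top 0.8% per 1000 barcodes called), and called nuclei were kept in the reported values. Female nuclei had Xist and no Y-linked UMI, male nuclei the reverse. With 1 library per group no test across mice was run, and no p-value is given. Python 3.11.15, numpy 2.4.6, scipy 1.17.1, pandas 2.3.3 and scikit-learn 1.9.0 were used. The step for ratios of pooled gene counts was tested on simulated data. Alternatives were 2 or 4 rule genes, 1500 UMIs, a mitochondrial limit of 1%, the study's percentile filter, no barring genes, no called doublets, no nuclei with other-class markers, thinning to 2000 UMIs, other denominators, single mice, mean CPM per nucleus, TMM scaling, other minimum UMIs, leaving out the top nucleus per gene and leaving out each library, which for single genes was added after seeing the data.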

Additional observations from a re-analysis of the deposited data

Results flagged for a closer look

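The log2 ratio of the share of non-neuronal members in Tgfbr2-cKO against Ctrl was -1.18 at 7 dpi and 2.70 at 21 dpi, opposite signs in the only library of each group. The interval of the value at 7 dpi held 0. With no nucleus barred, the values were -2.18 at 7 dpi and 0.29 at 21 dpi, and over unbarred nuclei -2.87 and 0.046. The intervals of 0.29 and 0.046 held 0. Over nuclei with no 3 markers of neurons or glia the values were 0.58 (-2.11 to 2.94) and 3.17 (1.17 to 5.70). The first of these intervals holds 0, so it gives no direction at 7 dpi. With no bar and over unbarred nuclei the 7 dpi intervals lay below 0. The part of the denominator in the opposite signs was not tested. The difference between the times was not tested, since each group was 1 library. Beside it, Col1a2 was detected in 7.66% and 19.1% of Tgfbr2-cKO nuclei and in 71.1% and 87.2% of Ctrl nuclei at 7 and 21 dpi, and 60.8% and 16.8% of Tgfbr2-cKO nuclei lay in the neuron gate.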

How the results depend on the processing

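No paired test was run. The female and the male mouse of each library were compared as values only.

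For non-neuronal members, the log2 ratio of shares for Tgfbr2-cKO against Ctrl at 21 dpi (2.70) was 0.29 with no barring genes and 0.046 with unbarred nuclei as denominator. In male nuclei alone, ADWA11 against Ctrl at 21 dpi was 0.49 or more at a floor of 3 nuclei, a bound since Ctrl had 0, and Tgfbr2-cKO at 21 against 7 dpi was 0.37 (1.65 or more in female nuclei, at the same floor). For all members, Tgfbr2-cKO against Ctrl at 7 dpi (4.18) was -1.44 with 4 rule genes, -1.18 without nuclei with other-class markers, -2.05 thinned to 2000 UMIs with or without barring genes, 2.91 with no barring genes, 0.58 over non-neural nuclei and 2.49 over unbarred nuclei. Tgfbr2-cKO against Ctrl at 21 dpi (3.17) was 5.22 with 2 rule genes, 1.20 with no barring genes, 0.51 over unbarred nuclei and 1.13 thinned with no barring genes. ADWA11 against Ctrl at 21 dpi (1.82) was 3.68 with 4 rule genes. Tgfbr2-cKO at 21 against 7 dpi (-1.66) was 2.35 with 4 rule genes, 2.18 without other-class markers, 3.09 thinned with or without barring genes, 1.26 over non-neural nuclei and -0.93 over Ptprc nuclei. The causes of these moves were not tested.

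The maturation median of all members against the dendritic gates (0.15) was 3.11 with 4 rule genes, 0.60 without called doublets, 4.14 without other-class markers, 4.24 thinned, 2.22 as mean CPM per nucleus, 0.96 under TMM scaling and 0.61 with no barring genes, and ran from -0.37 (without ADWA11 at 7 dpi) to 2.20 (without Tgfbr2-cKO at 7 dpi) with each library left out. Against macrophages (0.64) it was 3.63 with 4 rule genes, 4.29 without other-class markers and 4.13 thinned. For non-neuronal members against the dendritic gates (4.04) it was 3.63 with no barring genes. Of 97 list genes at least 2-fold from the dendritic gates in non-neuronal members, 18 were under 2-fold without 1 of the libraries, 49 moved over 1.5-fold and 1 (Il1b) turned direction. Between Tgfbr2-cKO at 21 and 7 dpi, mean CPM per nucleus gave 2051 higher and 2280 lower genes, a minimum of 50 UMIs 506 and 657, and no minimum 2097 higher, against 944 and 1149. The 230 other values that answer a comparison, under the alternatives tried, kept their direction or lay within their counting interval.

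With 3 to 18 non-neuronal members a library, the counting intervals of most ratios between libraries held 0 under at least 1 denominator, and variation between mice was seen only as the 2 mice of a library.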
